A study of Homo sapiens with 21 samples.

Results

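Transcript levels in A673, an established Ewing sarcoma cell line, were compared between cells rescued with mut9 and cells rescued with del22. These are 2 forms of the EWS/FLI fusion that differ in how much of the EWS domain they keep. The libraries were chosen by their sample labels, and 6 of the 21 libraries belong to the comparison, 3 for each construct. Both groups received a retroviral shRNA against the 3′ end of the fusion transcript (iEF) on day 1 and a FLAG-tagged cDNA in a pMSCV-hygro retrovirus on day 5. Puromycin (2 µg/ml) and hygromycin (400 µg/ml) were both kept until day 16. The mut9 cDNA joins the FLI portion to an N-terminal stretch and a short C-terminal stretch of the EWS domain, while del22, labelled delta22, lacks nearly all of that domain and served as a negative control. The FLI portion with its DNA-binding domain is common to both. Groups used beside them were iLuc, iEF, WT-EF, DAF and DAF-mut9. iLuc had a luciferase shRNA and an empty vector, so that the endogenous fusion is present, and iEF had the fusion shRNA and an empty vector. WT-EF, DAF and DAF-mut9 had the fusion shRNA and a cDNA, in WT-EF that of the full-length fusion. In DAF only tyrosines of the N-terminal part of the full EWS domain are replaced by alanine. In DAF-mut9 every tyrosine in the hexapeptide repeats that mut9 keeps is replaced. Each replicate is a separate knockdown and rescue experiment in a polyclonal selected pool, and every pool comes from the same line.

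The FLI portion of EWS/FLI carries an ETS domain, which binds the core letters GGAA, and the EWS portion is a low-complexity domain rich in tyrosine, glycine, serine and glutamine. In Ewing sarcoma cells the fusion binds at long tandem runs of GGAA (microsatellites) and at ordinary ETS sites. Genes such as NR0B1 and GSTM4 lie beside such microsatellites and need the fusion for their expression. Other genes, including TGFBR2, IGFBP3 and LOX, are held down while the fusion is present.

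The 6 libraries held 33.5 to 46.2 M counts in genes, so that 1 CPM (1 count per 1 M, after TMM adjustment) stood for 34.4 to 43.6 counts. Pearson correlations of log2 CPM between replicates of a group were 0.985 to 0.988, and mitochondrial genes took 6.54% to 10.8% of the counts. Among markers of Ewing sarcoma, STEAP1 was at 42.1 to 124 CPM and NR0B1, FLI1, NKX2-2 and PAX7 were detected in all 6 libraries. CD99, the surface protein used in diagnosis, had 0 to 8 counts. Whether this reflects its expression or the assignment of its reads was not tested, so it is not read as absence. CDKN2A, which is deleted in this line, had at most 1 count. Of markers that define other cell types, CD3E had at most 2 counts, EPCAM 9, CDH1 3, KRT5 4, MYOD1 1 and MYOG 2, whereas PTPRC reached 38 counts, KRT14 48, CD14 75 and DES 111. The keratins of simple epithelia, KRT18 and KRT8, were at 47.8 ± 10.8 and 9.82 ± 1.12 CPM in mut9 and 73.1 ± 37.3 and 15.1 ± 7.53 CPM in del22 (-0.60 ± 0.24, adjusted p = 0.137, and -0.62 ± 0.28, adjusted p = 0.207, neither called). The summed level of 8 leukocyte markers was 3.58 to 5.57 CPM in mut9 and 2.42 to 3.58 CPM in del22, that of 8 epithelial markers was 46.4 to 66.6 and 59.8 to 152 CPM, and that of 6 myogenic markers was 3.40 to 4.45 and 3.87 to 6.64 CPM. Of these lists, 1 of 7 tested leukocyte markers (CD79A), 2 of 8 epithelial markers (KRT19 and CLDN4) and 1 of 3 myogenic markers (DES) passed the test described next, the first higher in mut9 and the others lower, and the part of these markers in the results below was not tested. DES was not called in 4 of the 6 fits that left out 1 of these libraries (-1.19, adjusted p = 0.177 without del22 replicate 3), and KRT19 was not called without del22 replicate 3 (-1.55, adjusted p = 0.0726). Within 5 kb of its start CD79A has a run of 11 tandem GGAA. The leukocyte marker ITGAM, which was not called (1.68 ± 0.62, adjusted p = 0.106), has a run of 15. Any part of these runs in the levels was not tested. In bulk libraries, fewer cells of a type and less RNA per cell cannot be told apart.

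All tests below used a quasi-likelihood model of edgeR with a term for the replicate set, and adjusted p-values (Benjamini-Hochberg) cover 30549 genes. A log2 fold change is mut9 over del22, given with its SE, and library values are listed in the order of replicates 1, 2 and 3. FLI1, whose exons are read from the cDNA and from any remaining endogenous transcript, was at 28.4, 33.4 and 30.4 CPM in mut9 and 41.3, 45.2 and 62.0 CPM in del22. All mut9 libraries were therefore below all del22 libraries, with a log2 fold change of -0.68 ± 0.13, adjusted p = 0.00159. A total of 329 of its 8026 exon bases are shared with another annotated gene. FLI1 was at 20.7 ± 0.553 CPM (mean ± SD, n = 3) in iEF, 24.5 ± 2.39 CPM in WT-EF and 70.3 ± 16.2 CPM in iLuc. The cDNA and the remaining endogenous transcript were not told apart in these counts, and the part of the cDNA level in the differences below was not tested. EWSR1, whose exons can be read from its intact allele, from any remaining endogenous fusion transcript and from the EWS part of the cDNA, sources that were not told apart here, was at 267 ± 3.10 CPM in mut9 and 235 ± 16.6 CPM in del22, a difference of 0.18 ± 0.092, adjusted p = 0.272.

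Of the tested genes, 2800 (9.17%) passed an adjusted p of 0.05, with 1382 (4.52%) higher in mut9 and 1418 (4.64%) lower. Calls were more frequent among better-expressed genes. Of 13843 genes with a placed start and a mean of at least 1 CPM, 957 were higher and 1172 lower. The shares over all tested genes, given beside the gene lists below, are therefore a low background for lists of abundant genes. The median log2 fold change over all tested genes was 0.023. A change of at least 2-fold was seen for 903 of the higher and 766 of the lower genes. Among the called genes, 1372 of the higher and 1397 of the lower moved the same way in all 3 sets. The 3 mut9 libraries did not overlap the 3 del22 libraries for 1333 of the higher and 1341 of the lower. The genes were called from these same libraries, so both counts are largely fixed by the selection and are no separate evidence of replication. The median log2 difference of the higher genes was 1.18, 1.39 and 1.15 in sets 1, 2 and 3, and that of the lower genes was -0.92, -1.17 and -0.88, so set 2 gave the largest median in both directions. Without mut9 replicate 2, 1664 genes were called, 888 higher and 776 lower.

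**Figure D1:**
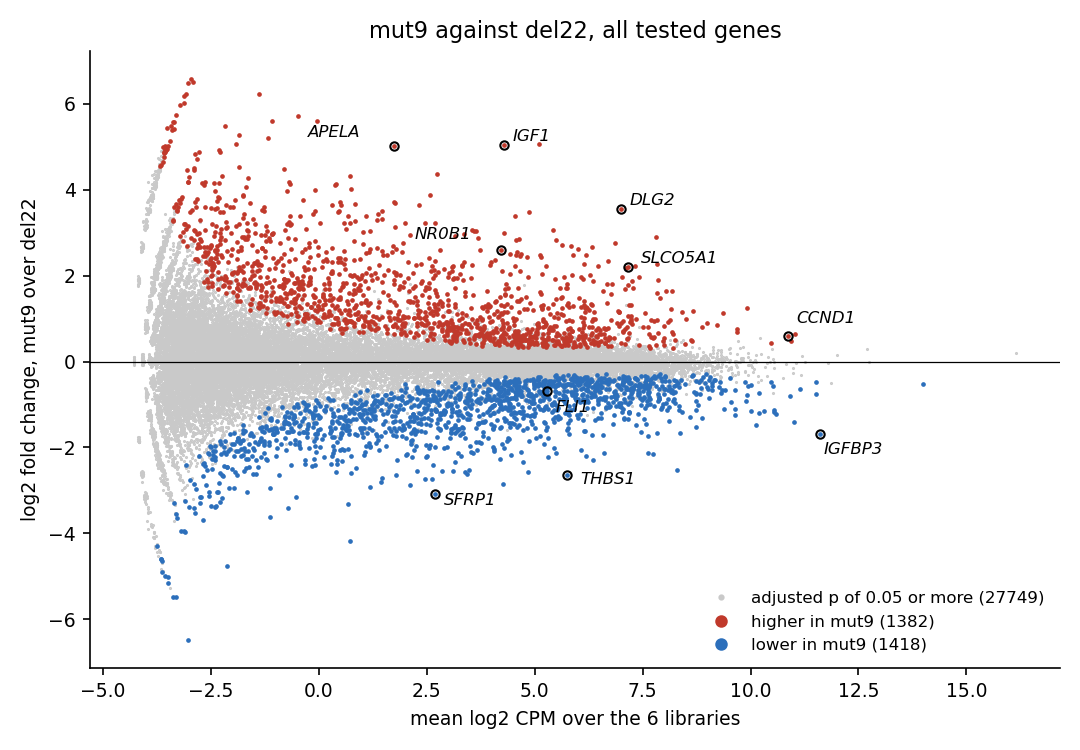
Log2 fold change of mut9 over del22 (vertical axis) against the mean log2 CPM of the 6 libraries (horizontal axis) for the 30549 tested genes. Coloured points are the 1382 genes called higher and the 1418 called lower in mut9 at an adjusted p of 0.05, and 10 genes are named beside open circles.

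Several named genes that were higher in mut9 lie beside GGAA microsatellites. To show these elements, the window around the longest tandem run of GGAA within 5 kb of the annotated start is given for 6 genes that were higher in mut9 and for 2 that were not. Sequences were read from GRCh37 (hg19), 5′ to 3′ on the strand that shows GGAA, and capitals mark each run of at least 2 GGAA in tandem. For NR0B1 the run lies at chrX:30328865-30328986 on the minus strand, 1390 bases before the start of the gene. For GSTM4 it lies at chr1:110196848-110196940, 1810 bases before the start, and for APELA at chr4:165794433-165794563, 3804 bases before the start. None of these windows touches an annotated gene. The run of SCNN1G, chr16:23192979-23193169, lies 974 bases before its start inside an unnamed gene (ENSG00000285613) but outside its exons. The runs of FCGRT (chr19:50014754-50014885, 4714 bases after the start) and CYP4F22 (chr19:15620659-15620743, minus strand, 1356 bases after the start) are intronic. CAV1, which encodes the coat protein of caveolae and was not called, has its run at chr7:116163111-116163214, 1876 bases before the start and in no annotated gene. DPF1, a BAF subunit gene that was lower in mut9, has an intronic run at chr19:38717625-38717684 on the minus strand, 2700 bases after the start.
NR0B1: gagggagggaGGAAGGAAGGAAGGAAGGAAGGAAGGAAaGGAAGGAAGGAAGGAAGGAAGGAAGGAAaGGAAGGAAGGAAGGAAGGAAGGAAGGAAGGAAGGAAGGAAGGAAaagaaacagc
GSTM4: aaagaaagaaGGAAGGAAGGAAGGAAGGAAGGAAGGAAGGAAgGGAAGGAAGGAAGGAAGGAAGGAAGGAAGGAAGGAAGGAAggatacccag
APELA: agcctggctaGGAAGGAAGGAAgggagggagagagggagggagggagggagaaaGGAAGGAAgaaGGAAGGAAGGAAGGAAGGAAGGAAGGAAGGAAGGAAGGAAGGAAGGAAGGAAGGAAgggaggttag
SCNN1G: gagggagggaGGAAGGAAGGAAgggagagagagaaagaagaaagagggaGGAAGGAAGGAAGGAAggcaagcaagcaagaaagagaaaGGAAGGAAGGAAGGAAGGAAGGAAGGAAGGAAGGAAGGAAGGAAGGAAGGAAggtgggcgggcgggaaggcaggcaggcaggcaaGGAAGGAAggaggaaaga
FCGRT: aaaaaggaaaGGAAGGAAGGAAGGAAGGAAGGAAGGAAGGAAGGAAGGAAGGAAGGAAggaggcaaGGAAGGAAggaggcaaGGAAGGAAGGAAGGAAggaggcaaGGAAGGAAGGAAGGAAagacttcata
CYP4F22: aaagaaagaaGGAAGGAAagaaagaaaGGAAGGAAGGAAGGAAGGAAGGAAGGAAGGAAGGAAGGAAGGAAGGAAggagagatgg
CAV1: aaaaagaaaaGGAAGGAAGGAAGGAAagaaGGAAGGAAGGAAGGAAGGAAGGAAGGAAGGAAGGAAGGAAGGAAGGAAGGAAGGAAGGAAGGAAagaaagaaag
DPF1: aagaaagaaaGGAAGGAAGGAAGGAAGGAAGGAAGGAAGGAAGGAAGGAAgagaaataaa
The longest uninterrupted run held 11 GGAA for NR0B1, 10 for GSTM4, 14 for APELA, 13 for SCNN1G, 12 for both FCGRT and CYP4F22, 16 for CAV1 and 10 for DPF1. The longest run of these 8 thus belongs to a gene that did not pass the test.

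NR0B1 (DAX1, an orphan nuclear receptor that the fusion needs for transformation) was at 56.6, 41.7 and 41.1 CPM in mut9 and 6.64, 12.1 and 5.28 CPM in del22. Every mut9 library exceeded every del22 library, 6.07-fold on the fitted scale (log2 fold change 2.60 ± 0.28, adjusted p = 2.28e-06). FCGRT, the neonatal Fc receptor, was at 55.1, 89.1 and 45.6 CPM in mut9 and 10.3, 11.5 and 10.9 CPM in del22. Its groups were also fully apart, with a log2 fold change of 2.52 ± 0.18, adjusted p = 1.20e-08. GSTM4, a glutathione transferase, was at 33.6, 56.8 and 30.7 CPM in mut9 and 8.53, 9.60 and 9.34 CPM in del22. The difference was 2.12 ± 0.25, adjusted p = 6.31e-06, but GSTM4 sits among close paralogs that can share reads, so its level is uncertain.

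The same held for 3 genes that ranked among the 10 largest increases. APELA, which encodes a peptide ligand of the apelin receptor, was at 13.7, 37.2 and 11.9 CPM in mut9 and 0.411, 0.963 and 0.454 CPM in del22. The log2 fold change was 5.02 ± 0.35, adjusted p = 7.59e-09. SCNN1G, the gamma subunit of the epithelial sodium channel, was at 8.07, 16.4 and 5.79 CPM in mut9 and 0.466, 1.54 and 0.656 CPM in del22, and its log2 fold change was 3.51 ± 0.36, adjusted p = 1.23e-06. For CYP4F22, a fatty acid hydroxylase of skin lipid synthesis, the libraries read 13.4, 33.1 and 10.9 CPM in mut9 and 0.960, 1.93 and 1.49 CPM in del22 (3.64 ± 0.29, adjusted p = 3.06e-08). In all 3 genes mut9 replicate 2 was the highest library. CAV1 was at 1127, 1073 and 856 CPM in mut9 and 683, 845 and 892 CPM in del22, and its difference of 0.34 ± 0.13, adjusted p = 0.122, did not pass. DPF1, with a run of the same length as that of GSTM4, was at 2.36, 2.68 and 3.17 CPM in mut9 and 5.46, 3.99 and 5.40 CPM in del22 and lower in mut9 (-0.84 ± 0.24, adjusted p = 0.0266). It passed the test in 1 of the 6 fits that each left out 1 of these libraries, and the adjusted p in the others was 0.0572 (without del22 replicate 3) to 0.144 (without mut9 replicate 1).

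**Figure D2:**
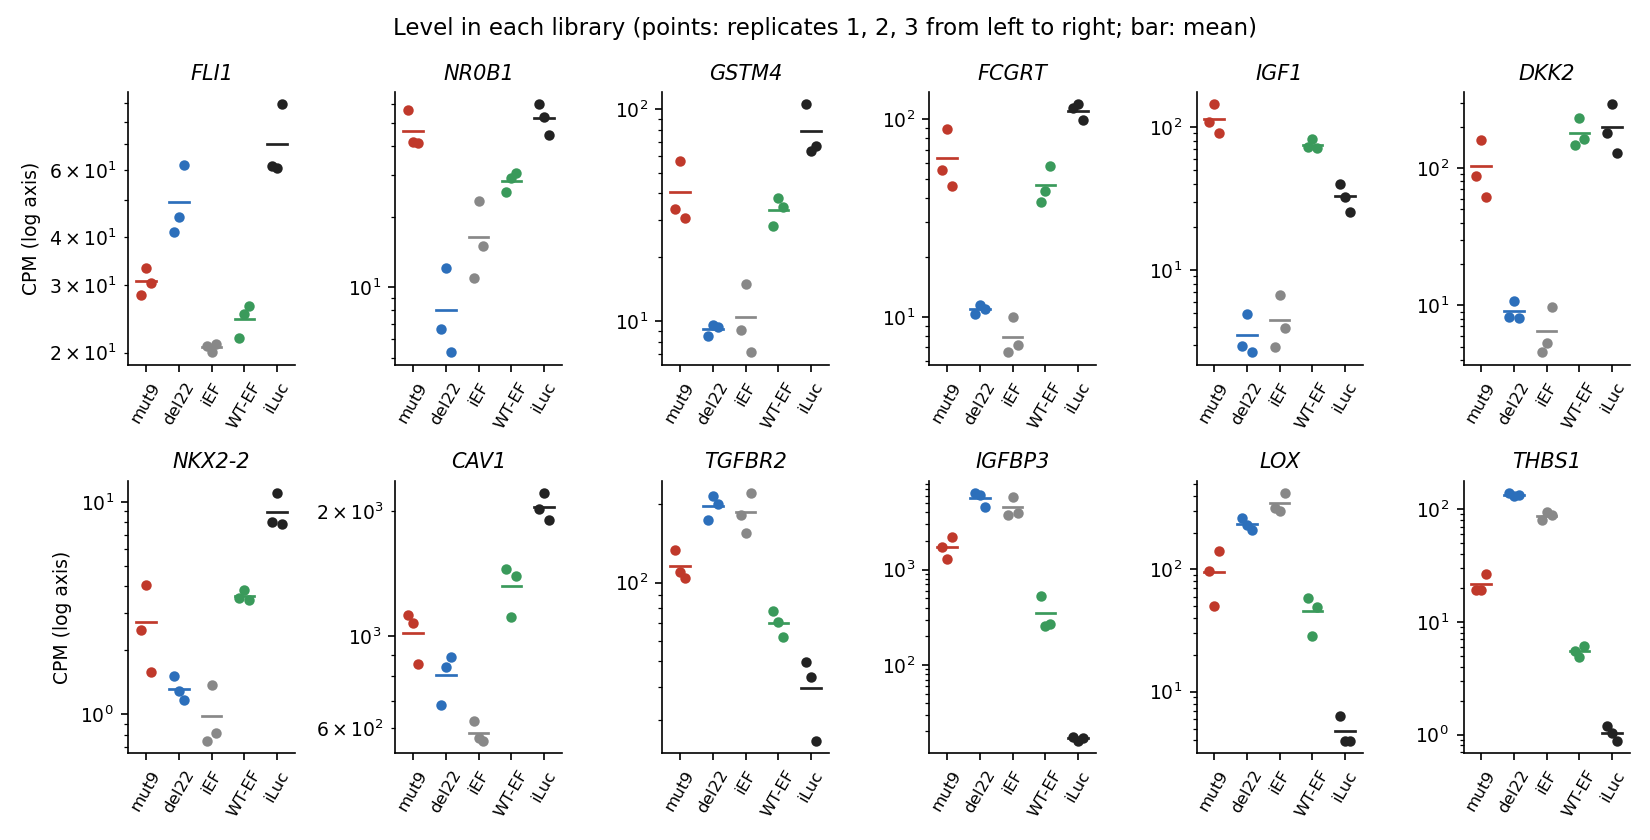
CPM on a log axis in each library of mut9, del22, iEF, WT-EF and iLuc for 12 genes, with 1 point per library and a bar at the group mean (n = 3). For NR0B1, GSTM4, FCGRT, IGF1, DKK2 and NKX2-2 all mut9 points lie above the del22 points, for FLI1, TGFBR2, IGFBP3, LOX and THBS1 they lie below, and for CAV1 they overlap.

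The share of genes with a run of at least 4 GGAA within 5 kb of the start was compared among the called genes. The start could be placed for 29538 tested genes, of which 3.55% had such a run (95% Wilson interval 3.34 to 3.77%). Among the placed genes higher in mut9, 127 of 1345 (9.44%, 7.99 to 11.1%) had one. Among those lower in mut9, 48 of 1394 did (3.44%, 2.61 to 4.54%), and among genes not called the share was 3.26%. The share of genes called higher grew with the length of the run. It was 4.28% of genes with no run of 4 or more, 5.73% with a run of 4 or 5, 9.57% with 6 to 9 and 25.5% (77 of 302) with at least 10. Over the same classes 4.72%, 5.73%, 5.85% and 1.66% (5 of 302) were called lower. Most genes with a run of at least 10 did not pass the test, and their median log2 fold change was 0.48. A run near a start is a match of letters and not a measured binding site, and these intervals cover counting error only.

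**Figure D3:**
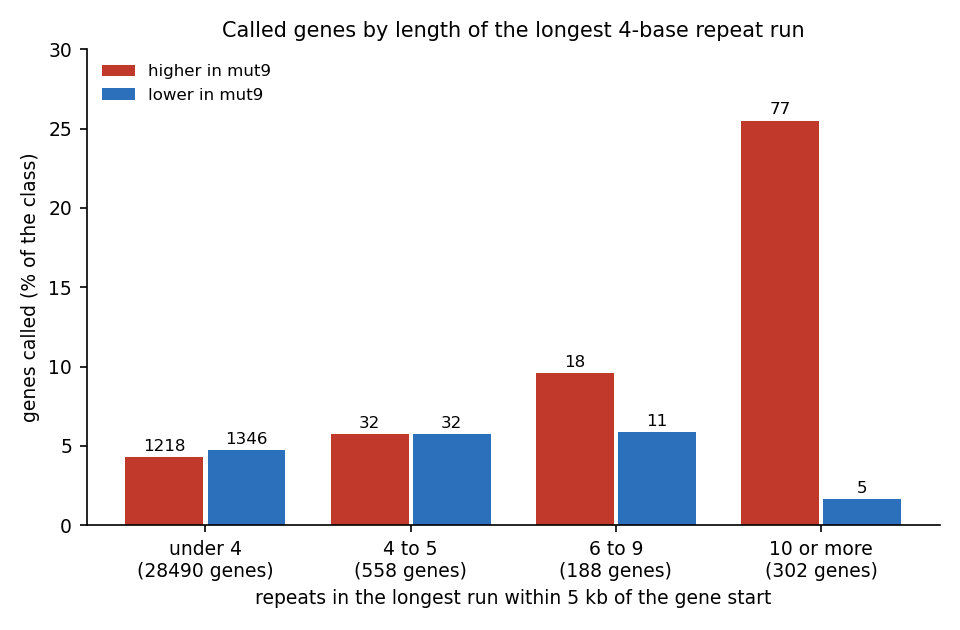
Percentage of genes called higher or lower in mut9 (vertical axis) by the number of GGAA in the longest run within 5 kb of the start (horizontal axis, 4 classes), with the number of called genes above each bar. The share called higher is 4.28% below a run of 4 and 25.5% at runs of 10 or more, while the share called lower is 4.72% and 1.66%.

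Of 30 genes listed here as activated by EWS/FLI, 19 were higher in mut9 and none was lower by edgeR's test. Their median log2 fold change was 1.33, against 0.023 and 4.52% called higher over all genes. The list was drawn up with earlier results of these data known, so its counts are a description and no independent evidence. At an unadjusted p of 0.05, 23 of the 30 passed, and DESeq2 called 20 higher and 0 lower. PRKCB, protein kinase C beta, was at 301, 412 and 219 CPM in mut9 and 38.5, 53.7 and 44.7 CPM in del22 (2.76 ± 0.19, adjusted p = 9.51e-09). KCNN1, a calcium-activated potassium channel, was at 11.6, 19.1 and 11.2 CPM in mut9 and 3.07, 3.58 and 3.31 CPM in del22 (2.07 ± 0.24, adjusted p = 5.90e-06). In both genes the groups did not overlap. PAX7, a paired-box factor of muscle and neural progenitors, had a log2 fold change of 1.72 ± 0.27, adjusted p = 1.41e-04. CCND1, the G1 cyclin that was by far the most abundant of these genes, was at 2602, 2159 and 2190 CPM in mut9 and 1630, 1617 and 1327 CPM in del22. Its shift was small, with no overlap between the groups (0.60 ± 0.11, adjusted p = 0.00101).

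GLI1 and NKX2-2 were low in all 6 libraries. GLI1, the effector of Hedgehog signalling, was at 1.20, 1.69 and 1.05 CPM in mut9 and 0.219, 0.573 and 0.328 CPM in del22 (1.82 ± 0.35, adjusted p = 0.00150). NKX2-2, a homeobox repressor that the fusion uses to silence genes, was at 2.50, 4.05 and 1.57 CPM in mut9 and 1.51, 1.28 and 1.16 CPM in del22 (0.99 ± 0.26, adjusted p = 0.0166). Its groups did not overlap, but mut9 replicate 3 was close to the highest del22 library. A total of 933 of its 2123 exon bases are shared with another gene, so its level is uncertain. It was not called in 4 of the 6 fits without 1 library, those without mut9 replicate 1 (0.96, adjusted p = 0.0572) or 2 (0.73, adjusted p = 0.165) and without del22 replicate 2 (0.81, adjusted p = 0.131) or 3 (0.99, adjusted p = 0.0543). SOX2, a stem-cell factor, was at 97.6, 94.3 and 67.4 CPM in mut9 and 47.5, 77.4 and 56.4 CPM in del22, where the groups overlapped, and its difference of 0.53 ± 0.17, adjusted p = 0.0564, did not pass. VRK1, a chromatin kinase and the most abundant list member after CAV1 that was not called, differed by 0.30 ± 0.12, adjusted p = 0.117.

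The largest increase among genes of at least 5 CPM was that of IGF1, the growth factor whose receptor Ewing sarcoma cells depend on, at 109, 144 and 91.2 CPM in mut9 and 2.96, 4.93 and 2.65 CPM in del22. The log2 fold change was 5.03 ± 0.27, adjusted p = 2.25e-10. As 6693 of its 8115 exon bases are shared with another annotated gene and the strand setting of the counting is not stated, this value is uncertain. GPR174, a lysophosphatidylserine receptor on chromosome X, was at 34.0, 44.7 and 18.9 CPM in mut9 and 1.37, 3.03 and 0.656 CPM in del22 (4.38 ± 0.43, adjusted p = 6.65e-07). It has a run of 4 GGAA in an exon. PDGFD, a ligand of the PDGF beta receptor, was at 18.6, 36.1 and 15.9 CPM in mut9 and 1.70, 1.47 and 1.54 CPM in del22 (3.89 ± 0.29, adjusted p = 1.33e-08). DKK2, a secreted Wnt modulator, was at 87.0, 160.2 and 61.1 CPM in mut9 and 8.17, 10.8 and 8.08 CPM in del22 (3.47 ± 0.32, adjusted p = 2.23e-07). All mut9 libraries lay above all del22 libraries for these 4 genes.

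Genes of neuronal proteins were among the rest of the 10 largest. KCNH5, a voltage-gated potassium channel, was at 13.9, 15.9 and 8.78 CPM in mut9 and 0.960, 1.67 and 0.353 CPM in del22 (3.72 ± 0.29, adjusted p = 3.08e-08). DLG2, a scaffold protein of the postsynaptic density, was the most abundant of the 10 at 409.8, 581 and 343 CPM in mut9 and 34.5, 44.2 and 33.5 CPM in del22. The groups did not overlap for either gene. DLG2 also had one of the 3 smallest p-values among the increases (3.55 ± 0.20, adjusted p = 6.84e-10). The others were IGF1 and SLCO5A1, an organic anion transporter that was at 327, 372 and 239 CPM in mut9 and 61.1, 79.9 and 62.7 CPM in del22 (2.20 ± 0.11, adjusted p = 2.25e-10).

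Most HOXD genes, homeobox factors that set posterior and limb identity, were higher in mut9. Of 9 tested, 6 were called higher and 0 lower by edgeR, against 4.52% and 4.64% of all tested genes. An unadjusted p of 0.05 gave 7, DESeq2 gave 7 higher and 0 lower, and the median log2 fold change was 0.86. The increases were of a like and modest size. HOXD9 was at 14.7, 18.7 and 11.4 CPM in mut9 and 6.78, 7.13 and 6.26 CPM in del22 (1.14 ± 0.19, adjusted p = 2.84e-04) and HOXD10 at 50.6, 59.4 and 44.3 CPM in mut9 and 24.9, 26.9 and 27.7 CPM in del22 (0.95 ± 0.13, adjusted p = 5.34e-05), both with no overlap. HOXD11 (0.93 ± 0.21, adjusted p = 0.00571) and HOXD3 (0.86 ± 0.22, adjusted p = 0.0153) followed, and HOXD10, HOXD11 and HOXD3 share some exon bases with neighbouring genes. HOXD3 was lost in 4 of the 6 fits without 1 library, the weakest being that without del22 replicate 2 (0.72, adjusted p = 0.111).

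Among 24 tested neural transcription factor genes, 10 were higher in mut9 (4.52% over all tested genes) and 0 lower by edgeR, with a median of 0.53. At an unadjusted p of 0.05 this was 13, and DESeq2 called 11 higher and 0 lower. POU3F1, a POU factor of Schwann cells and neural progenitors, was at 20.3, 28.8 and 16.6 CPM in mut9 and 4.91, 5.32 and 3.66 CPM in del22 (2.24 ± 0.19, adjusted p = 1.04e-07). ISL1, a LIM factor of motor and sensory neurons, was at 7.33, 10.7 and 5.88 CPM in mut9 and 2.66, 2.36 and 3.51 CPM in del22 (1.50 ± 0.20, adjusted p = 3.68e-05). The groups were apart in both. MYT1, a zinc finger factor of neuronal precursors, was under 1 CPM in all 6 libraries (1.79 ± 0.47, adjusted p = 0.0179) and was lost in 4 of the 6 fits without 1 library, for example without del22 replicate 2 (1.81, adjusted p = 0.0865).

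Of 30 synaptic and neurosecretory genes, 8 were higher and 1 lower (4.52% and 4.64% over all tested genes), with a median of 0.31. SV2B, a synaptic vesicle glycoprotein, was at 3.95, 9.97 and 2.85 CPM in mut9 and 0.192, 0.435 and 0.278 CPM in del22 (4.12 ± 0.54, adjusted p = 2.47e-05). The neuropeptide genes NPY (2.63 ± 0.33, adjusted p = 1.55e-05), CALCB (2.17 ± 0.25, adjusted p = 3.96e-06) and GRP (1.95 ± 0.22, adjusted p = 3.12e-06) were higher as well. NPY was at 9.73, 12.0 and 5.12 CPM in mut9 and 1.10, 1.05 and 2.17 CPM in del22, and CALCB and GRP likewise had no overlap. The abundant members that did not pass were GAP43, a growth-cone protein, at 183 ± 32.1 and 122 ± 12.8 CPM, and SV2A at 36.3 ± 3.94 and 30.7 ± 1.73 CPM. Their differences were 0.59 ± 0.24, adjusted p = 0.156 and 0.23 ± 0.15, adjusted p = 0.418. The lower call was SCG2, a granin of secretory granules (-0.72 ± 0.20, adjusted p = 0.0228), named after its value was seen. The number called lower was 0 without mut9 replicate 1 or 3 and 2 without del22 replicate 1.

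Potassium and calcium channel genes moved in both directions, with a median of 0.19. Of 29 tested, 8 were higher and 4 lower, against 4.52% and 4.64% of all tested genes. KCNA2, a delayed rectifier of axons, was at 8.35, 13.1 and 6.98 CPM in mut9 and 1.62, 2.84 and 2.32 CPM in del22 (2.07 ± 0.20, adjusted p = 5.69e-07). KCNK3, a background potassium channel, was at 1.78, 1.94 and 1.92 CPM in mut9 and 9.38, 8.32 and 8.03 CPM in del22 (-2.19 ± 0.27, adjusted p = 8.96e-06), so its order was the reverse with no overlap.

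Of 20 genes listed here as repressed by EWS/FLI, 11 were lower in mut9, against 4.64% of all genes. A further 2 were higher, and the median log2 fold change was -0.84. This list too was drawn up with earlier results of these data known, so its counts are a description only. IGFBP3, which binds IGF1 in the medium and limits its signalling, was at 1718, 1288 and 2214 CPM in mut9 and 6414, 6167 and 4600 CPM in del22 (-1.70 ± 0.24, adjusted p = 4.96e-05). LOX, the lysyl oxidase that crosslinks collagen, was at 97.6, 49.8 and 140.3 CPM in mut9 and 265, 231 and 212 CPM in del22 (-1.34 ± 0.26, adjusted p = 0.00157). TGFBR2, the type II receptor of TGF-beta, was at 134, 109.9 and 104 CPM in mut9 and 173, 214 and 199.9 CPM in del22 (-0.76 ± 0.18, adjusted p = 0.00731). All 3 genes were lower in every mut9 library than in any del22 library, and their fitted folds of del22 over mut9 were 3.24, 2.53 and 1.70. Without mut9 replicate 2 the change of TGFBR2 was -0.71, adjusted p = 0.0527. LOX was not called from the ComBat-adjusted values.

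The decreases on this list with the largest folds were those of secreted proteins of the matrix. SPP1 (osteopontin) was at 8.67, 7.54 and 8.11 CPM in mut9 and 138, 64.5 and 10.2 CPM in del22 (-2.85 ± 0.49, adjusted p = 4.39e-04). Its del22 libraries spanned a wide range, and replicate 3 of del22 was close to the mut9 libraries. THBS1 (thrombospondin, an activator of latent TGF-beta) had narrow groups, 19.2, 19.3 and 26.4 CPM in mut9 and 139, 131 and 133 CPM in del22, and the smallest p of the decreases (-2.64 ± 0.14, adjusted p = 2.25e-10). POSTN (periostin) was at 23.6, 31.0 and 40.4 CPM in mut9 and 63.0, 117 and 129 CPM in del22 (-1.70 ± 0.31, adjusted p = 7.32e-04). The members that rose were TNC and ZEB2, the latter a repressor of epithelial genes (0.51 ± 0.13, adjusted p = 0.0117). Neither was called without mut9 replicate 3, and TNC was also lost without mut9 replicate 1 (0.47, adjusted p = 0.156), without del22 replicate 3 (0.48, adjusted p = 0.121) and with no replicate block (0.59, adjusted p = 0.123). CDKN1A (p21), at 118 ± 16.7 and 139 ± 28.4 CPM, and CCL2, at 420.4, 86.0 and 222 CPM in mut9 and 231, 558 and 201 CPM in del22, did not pass (-0.21 ± 0.21, adjusted p = 0.659, and -0.21 ± 0.46, adjusted p = 0.867). The sign of the CCL2 difference depended on which replicates were included.

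Beyond these, the 10 largest decreases of genes of at least 5 CPM held secreted inhibitors, enzymes and regulators. SFRP1, a secreted Wnt antagonist, was at 0.971, 2.92 and 3.55 CPM in mut9 and 10.3, 18.6 and 33.7 CPM in del22 (-3.08 ± 0.27, adjusted p = 1.30e-07). IGFBP1, another carrier of IGF1, was at 0.902, 1.20 and 3.00 CPM in mut9 and 11.7, 11.9 and 12.3 CPM in del22 (-2.88 ± 0.34, adjusted p = 6.74e-06). ANPEP, aminopeptidase N of mesenchymal cells (CD13), was at 11.6, 9.11 and 15.9 CPM in mut9 and 60.8, 89.4 and 62.9 CPM in del22 (-2.57 ± 0.26, adjusted p = 7.58e-07). The groups did not overlap in any of the 3. NR2F1 (COUP-TFI), a nuclear receptor of neural crest and mesenchyme, was at 3.65, 3.73 and 5.99 CPM in mut9 and 26.3, 36.6 and 16.0 CPM in del22 (-2.57 ± 0.29, adjusted p = 3.94e-06). DHRS3, a retinaldehyde reductase, was at 3.54, 1.99 and 8.49 CPM in mut9 and 25.8, 37.4 and 26.6 CPM in del22 (-2.62 ± 0.50, adjusted p = 0.00131). The remaining members were RIPOR2 (-2.73), EPB41L4B, a membrane-cytoskeleton linker (-2.73), and RFX8, a member of the RFX factor family (-2.65), with adjusted p-values of 1.24e-04, 1.65e-04 and 1.36e-06. AK5, an adenylate kinase of the nervous system, joined SFRP1 and THBS1 among the 3 smallest p-values (-2.53 ± 0.19, adjusted p = 2.24e-08).

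More extracellular matrix genes were called lower in mut9 than higher. Of 24 collagen genes 7 were lower and 3 higher (4.64% and 4.52% over all tested genes), with a median of -0.43. COL13A1, a transmembrane collagen, was at 19.1, 18.8 and 26.9 CPM in mut9 and 89.9, 74.1 and 62.2 CPM in del22 (-1.79 ± 0.19, adjusted p = 2.10e-06). COL15A1, of basement membranes (-1.70 ± 0.37, adjusted p = 0.00447), and COL6A1, of microfibrils (-1.38 ± 0.27, adjusted p = 0.00150), were lower too. COL21A1, a fibril-associated collagen, went the other way at 78.5, 126 and 55.8 CPM in mut9 and 15.3, 19.9 and 18.1 CPM in del22 (2.23 ± 0.29, adjusted p = 2.07e-05). The abundant COL5A2 was at 635 ± 129 and 509.5 ± 128 CPM (0.34 ± 0.22, adjusted p = 0.446). The number of collagen genes called lower was 4 without mut9 replicate 2.

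Among 30 matricellular and matrix-remodelling genes, 13 were lower and 4 higher (4.64% and 4.52% over all tested genes), with a median of -0.56. Besides THBS1 and POSTN, the decreases included LUM (lumican), which had 0 to 2 counts in mut9 and 0.302, 0.138 and 0.328 CPM in del22, so that del22 was at least 3.33-fold higher when mut9 is set at a floor of 3 counts per library. DCN (decorin), a related proteoglycan, showed the opposite: it had at most 1 count in del22 and was at 0.462, 1.13 and 0.291 CPM in mut9, at least 8.30-fold higher by the same floor. Both genes were thus near the limit of detection in one of the groups. MMP9 (gelatinase B) was at 43.4, 25.3 and 44.7 CPM in mut9 and 6.17, 21.6 and 2.22 CPM in del22 (2.25 ± 0.51, adjusted p = 0.00557), with 1 del22 library close to the lowest mut9 library. The abundant SPARC and FBN1 (fibrillin) differed by 0.12 ± 0.14, adjusted p = 0.720 and by -0.41 ± 0.18, adjusted p = 0.194, and did not pass. The number called lower was 7 without mut9 replicate 2 and 8 without del22 replicate 2, and the number called higher was 2 without mut9 replicate 1 or del22 replicate 3.

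Integrin and focal adhesion genes gave one of the larger shares of lower calls, 14 of 30 against 4.64% of all tested genes. A further 2 were higher, against 4.52% of all, and the median was -0.47. ITGB3, the beta chain of the vitronectin receptor, was at 2.59, 2.33 and 4.28 CPM in mut9 and 14.1, 23.7 and 16.2 CPM in del22 (-2.56 ± 0.26, adjusted p = 1.02e-06), and 2266 of its 6829 exon bases are shared with another gene. ITGA10, a collagen receptor chain, was at 20.7, 15.5 and 17.0 CPM in mut9 and 79.4, 49.5 and 56.4 CPM in del22 (-1.79 ± 0.20, adjusted p = 3.96e-06). ITGA2, the alpha chain of another collagen receptor, was at 29.0, 15.8 and 57.9 CPM in mut9 and 106, 105 and 78.6 CPM in del22 (-1.60 ± 0.36, adjusted p = 0.00500). All 3 integrin chains were lower in each mut9 library. TNS3, a tensin of focal adhesions, was at 1.13, 0.957 and 1.11 CPM in mut9 and 3.18, 8.62 and 11.5 CPM in del22 (-2.71 ± 0.39, adjusted p = 6.34e-05). Without mut9 replicate 2 or del22 replicate 1 or 2, 1 member was called higher, and ITGA2 gave -1.26, adjusted p = 0.0523 in the first of these fits. The abundant structural members FLNA (filamin) and VCL (vinculin) differed by -0.15 ± 0.11, adjusted p = 0.543 and by -0.34 ± 0.11, adjusted p = 0.0689, and did not pass.

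Contractile genes under the serum response factor SRF and targets of YAP and TEAD, which respond to cell spreading and tension, showed smaller counts in the same direction. Of 20 SRF targets 7 were lower and 0 higher by edgeR (13 at an unadjusted p of 0.05 in either direction, 9 lower and 0 higher by DESeq2), with a median of -0.41. Of 20 genes on the YAP and TEAD list 5 were lower and 1 higher, with a median of -0.38. This list also holds the factors YAP1, WWTR1, TEAD1 and TEAD4 themselves. The 14 not called included the targets CCN1 (0.045 ± 0.21, adjusted p = 0.945) and CCN2 (-0.46 ± 0.20, adjusted p = 0.174). Both lists are read beside 4.64% of all tested genes lower and 4.52% higher. ANKRD1, a cardiac ankyrin repeat protein on both lists, was at 94.9, 81.9 and 159.9 CPM in mut9 and 279, 346 and 492 CPM in del22 (-1.73 ± 0.32, adjusted p = 0.00105). CNN1 (calponin) was at 0.879, 1.50 and 1.57 CPM in mut9 and 3.29, 5.09 and 6.24 CPM in del22 (-1.90 ± 0.35, adjusted p = 8.20e-04), and FHL2 at 28.5, 21.8 and 31.2 CPM in mut9 and 57.4, 52.8 and 63.6 CPM in del22 (-1.10 ± 0.17, adjusted p = 1.08e-04). AXL, a receptor tyrosine kinase, was at 40.5, 25.8 and 62.9 CPM in mut9 and 85.5, 126 and 181 CPM in del22 (-1.62 ± 0.26, adjusted p = 2.15e-04). In these 4 genes the groups did not overlap. MYL9, a myosin light chain, was called at under 2 CPM (-1.29 ± 0.40, adjusted p = 0.0448) and was lost whichever of the 6 libraries was left out. NT5E (CD73, -1.19 ± 0.17, adjusted p = 8.64e-05) and F3 (tissue factor, -1.05 ± 0.20, adjusted p = 0.00144) were also lower. The abundant MYH9 (nonmuscle myosin), ACTG1 (gamma actin), DLC1 and PTPN14 differed by -0.37, -0.34, -0.44 and -0.37 on the log2 scale and did not pass. Leaving out 1 library gave 4 (without mut9 replicate 1 or 2 or del22 replicate 1 or 2) to 6 lower SRF targets.

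TGF-beta pathway genes were called in both directions. Of 27 tested, 9 were lower and 5 higher (4.64% and 4.52% over all tested genes), with a median of -0.20. The latent TGF-beta binding proteins, which hold the ligand in the matrix, were lower. LTBP1 was at 9.66, 7.66 and 12.5 CPM in mut9 and 42.0, 43.6 and 27.0 CPM in del22 (-1.91 ± 0.19, adjusted p = 6.70e-07) and LTBP2 at 5.99, 5.38 and 6.43 CPM in mut9 and 16.0, 23.7 and 12.4 CPM in del22 (-1.53 ± 0.20, adjusted p = 1.96e-05). Among ligands, BMP6 was at 3.03, 4.27 and 4.97 CPM in mut9 and 7.87, 11.4 and 18.6 CPM in del22 (-1.60 ± 0.18, adjusted p = 4.12e-06), and all of these groups were apart. INHBB, the activin beta B chain, was called below 2 CPM with overlapping groups (-1.59 ± 0.49, adjusted p = 0.0461) and was lost in 5 of the 6 fits without 1 library, to -1.29, adjusted p = 0.228 without del22 replicate 3. Besides TGFBR2 the type I receptor TGFBR1 (-0.89 ± 0.13, adjusted p = 5.36e-05) and the signal transducer SMAD3 (-0.69 ± 0.20, adjusted p = 0.0310) fell, whereas BMP7 (1.13 ± 0.30, adjusted p = 0.0182) and SMAD9, a SMAD of the BMP branch (1.23 ± 0.19, adjusted p = 1.15e-04), rose. These 4 were named after their values were seen. There were 5 lower and 2 higher members without mut9 replicate 2, and the number called higher was also 2 without del22 replicate 1 or 3.

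On a list of 18 genes tied to MAPK feedback, 8 were lower in mut9, against 4.64% of all tested genes, and 0 were higher by edgeR. The list also holds the transcription factor genes EGR1, FOS and FOSL1, which are not feedback inhibitors. FOSL1 was among the 8 (-0.91 ± 0.16, adjusted p = 5.75e-04), while EGR1 and FOS did not pass. The unadjusted p was below 0.05 for 9 in either direction, DESeq2 called 8 lower and 0 higher, and the median was -0.59. DUSP4, a phosphatase of ERK, was at 35.2, 43.1 and 44.2 CPM in mut9 and 109.7, 131 and 136 CPM in del22 (-1.62 ± 0.17, adjusted p = 1.09e-06). SPRY2 and SPRY4, Sprouty inhibitors of receptor tyrosine kinase signalling, were at 55.9, 56.8 and 67.7 CPM in mut9 and 125, 128 and 195 CPM in del22 (-1.30 ± 0.23, adjusted p = 6.12e-04) and at 42.0, 38.5 and 67.1 CPM in mut9 and 87.6, 83.6 and 108 CPM in del22 (-0.93 ± 0.20, adjusted p = 0.00353). The groups did not overlap in these 3 genes. PHLDA1 had a log2 fold change of -1.25 ± 0.26, adjusted p = 0.00317. DUSP6, a phosphatase induced by and directed at ERK, was at 769, 622 and 579 CPM in mut9 and 574, 689 and 598 CPM in del22, with overlapping groups and a difference of 0.076 ± 0.15, adjusted p = 0.850.

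Of 26 Hedgehog and Wnt pathway genes 5 were higher and 6 lower (4.52% and 4.64% over all tested genes), with a median of -0.15. Secreted Wnt modulators lay at both ends. DKK2, given above, and FRZB, a decoy for Wnt ligands, were higher, the latter at 16.7, 20.03 and 6.46 CPM in mut9 and 2.94, 2.52 and 2.40 CPM in del22 (2.40 ± 0.34, adjusted p = 5.38e-05). SFRP1 and DKK3 were lower, DKK3 at 35.9, 34.1 and 39.9 CPM in mut9 and 208, 227 and 123 CPM in del22 (-2.29 ± 0.20, adjusted p = 1.39e-07), with 5681 of its 11958 exon bases shared with another gene. In each of these genes the 3 mut9 libraries were on one side of the 3 del22 libraries. Without mut9 replicate 1, 3 members were called lower.

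Interferon-stimulated genes, which encode antiviral proteins, were lower in mut9 for 6 of 25 members, with 0 higher by edgeR and a median of -0.75. At an unadjusted p of 0.05, 18 of the 25 passed, and DESeq2 called 6 lower and 0 higher. The background was 4.64% of all tested genes lower, and the count turned on single libraries. IFIT1, an RNA-binding antiviral protein, was at 130.3, 52.5 and 117 CPM in mut9 and 171, 276 and 241 CPM in del22 (-1.16 ± 0.32, adjusted p = 0.0247), and MX2, a dynamin-like GTPase, at 16.1, 2.65 and 13.8 CPM in mut9 and 33.7, 49.0 and 19.1 CPM in del22 (-1.57 ± 0.48, adjusted p = 0.0421). In both, mut9 replicate 2 was far below the other mut9 libraries. Without it the changes were -0.77, adjusted p = 0.167, and -0.95, adjusted p = 0.145, and 0 of the 25 genes were called, against 16 without mut9 replicate 1, 2 without mut9 replicate 3, 1 without del22 replicate 2 and 3 without del22 replicate 3. IFIT1 and MX2 were each lost in 4 of the 6 fits without 1 library, and MX2 also by DESeq2 (-1.56, adjusted p = 0.0609) and in the fit of only the 6 libraries (-1.77, adjusted p = 0.0512). OASL (-1.40 ± 0.34, adjusted p = 0.00868) and ISG20 (-1.24 ± 0.29, adjusted p = 0.00738) were also lost without mut9 replicate 2 (-0.98, adjusted p = 0.0505, and -0.88, adjusted p = 0.0777).

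Cytokine and chemokine genes gave 3 lower calls of 27 and 0 higher by edgeR (5 at an unadjusted p of 0.05, 2 lower and 0 higher by DESeq2), with a median of -0.28. Over all tested genes 9.17% were called and 4.64% were lower, so a count this small is not set apart from the background. CXCL8 (interleukin 8) was at 1177, 293 and 1046 CPM in mut9 and 1979, 2223 and 1594 CPM in del22 (-1.20 ± 0.38, adjusted p = 0.0491), and IL11 at 15.2, 9.35 and 20.6 CPM in mut9 and 37.9, 36.9 and 27.1 CPM in del22 (-1.22 ± 0.29, adjusted p = 0.00760). CXCL12, the ligand of CXCR4, was at 0.208, 0.246 and 1.69 CPM in mut9 and 2.06, 1.86 and 2.40 CPM in del22 (-1.81 ± 0.51, adjusted p = 0.0277). Their groups did not overlap, yet none of the 3 was called without mut9 replicate 2 (-0.71, adjusted p = 0.211, -0.99, adjusted p = 0.0776, and -1.52, adjusted p = 0.156) or without del22 replicate 2. CXCL8 was also lost without del22 replicate 1 or 3 and by DESeq2 (-1.22, adjusted p = 0.0567), and CXCL12 without mut9 replicate 1 or del22 replicate 1 and with no replicate block (-1.60, adjusted p = 0.116). Of 16 MHC class I antigen presentation genes 0 were called by edgeR, with 6 at an unadjusted p of 0.05, and DESeq2 called 2 lower and 0 higher. Their median was -0.28, without mut9 replicate 1, 4 were called lower, and without mut9 replicate 2, 1 was called higher. B2M, the light chain of class I molecules, was at 2091 ± 316 CPM in mut9 and 2166 ± 384 CPM in del22.

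Calls on growth and housekeeping lists are read beside the 9.17% of all tested genes that were called. A larger share was called among better-expressed genes, as given above. Counts this small on short lists are not set apart from the 9.17%. Of 30 DNA replication and mitosis genes 1 was higher, MCM6, a subunit of the replicative helicase (0.51 ± 0.15, adjusted p = 0.0385), and 0 were lower by edgeR, with 1 at an unadjusted p of 0.05 and a median of 0.11. MCM6 was lost in 5 of the 6 fits without 1 library, to 0.40, adjusted p = 0.246 without mut9 replicate 2. MKI67, a marker of cycling cells, was at 398, 396 and 557 CPM in mut9 and 448, 349 and 297 CPM in del22, with a difference of 0.33 ± 0.21, adjusted p = 0.415. Among 13 G1 cyclins and CDK inhibitors only CCND1 was called, and the abundant CDK6 and RB1 differed by -0.62 ± 0.21, adjusted p = 0.0778 and by 0.12 ± 0.093, adjusted p = 0.554. Of 19 cholesterol synthesis genes 0 were called by edgeR, 4 passed an unadjusted p of 0.05 and the median was -0.058, and DESeq2 called 0 higher and 0 lower. Ribosome biogenesis gave 1 call of 20, WDR12 (0.37 ± 0.099, adjusted p = 0.0187), a factor of large-subunit assembly that was lost in 4 of the 6 fits without 1 library, to 0.34, adjusted p = 0.128 without mut9 replicate 2, and the nucleolar proteins NPM1 and NCL differed by 0.14 and 0.27 on the log2 scale.

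The count for ETS factor genes was near the 9.17% called over all tested genes. Of 25 ETS factor genes 3 were higher and 0 lower by edgeR (8 at an unadjusted p of 0.05, 3 higher and 2 lower by DESeq2), with a median of -0.040. ETS2 was at 57.6, 55.6 and 52.3 CPM in mut9 and 19.3, 25.7 and 26.2 CPM in del22 (1.25 ± 0.26, adjusted p = 0.00290), with no overlap. FEV, an ETS factor of serotonergic neurons that is itself a fusion partner of EWSR1 in rare Ewing sarcomas, was at 0.231, 0.859 and 0.931 CPM in mut9 and 0.0823, 0.0917 and 0.0757 CPM in del22 (2.90 ± 0.46, adjusted p = 2.08e-04), and ELF2 differed by 0.46 ± 0.11, adjusted p = 0.00753, a call lost without mut9 replicate 2 (0.41, adjusted p = 0.0621). ETS1 was at 133, 68.2 and 124 CPM in mut9 and 157, 238 and 200.3 CPM in del22, where the groups did not overlap, and did not pass (-0.89 ± 0.29, adjusted p = 0.0593). Without mut9 replicate 1 or 3, 1 ETS factor gene was called lower. Endothelial-type ETS targets were called in both directions, 3 of 23 each way, with a median of -0.31. The shares over all tested genes were 4.52% higher and 4.64% lower. Among the higher were EGFL7 (1.04 ± 0.20, adjusted p = 0.00128) and LMO2 (0.78 ± 0.20, adjusted p = 0.0169). Among the lower were ANGPT2 (-1.47 ± 0.24, adjusted p = 2.86e-04) and TIE1 (-1.38 ± 0.36, adjusted p = 0.0164). TIE1 and LMO2 were each lost in 4 of the 6 fits without 1 library (-1.16, adjusted p = 0.125 and 0.70, adjusted p = 0.0877 without mut9 replicate 2), and KDR, the VEGF receptor, did not pass (-0.61 ± 0.31, adjusted p = 0.276). Leaving out 1 library gave 1 to 3 higher and 1 to 4 lower calls, the fewest of both without mut9 replicate 2.

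BAF complexes, which remodel chromatin and are bound by the EWS domain, had 4 higher and 1 lower call among 24 genes. Against this stand 4.52% and 4.64% of all tested genes, and the list's median was 0.015. SMARCC1, a core subunit, was at 289, 342 and 275 CPM in mut9 and 147, 170 and 154 CPM in del22 (0.94 ± 0.12, adjusted p = 1.51e-05), and ARID2, of the related PBAF complex, at 108, 124 and 114 CPM in mut9 and 79.3, 91.4 and 84.2 CPM in del22 (0.44 ± 0.092, adjusted p = 0.00298). The 6 libraries were separated by group in both. BCL7A was higher as well (0.61 ± 0.16, adjusted p = 0.0189), but was lost without mut9 replicate 1 (0.54, adjusted p = 0.0967) and without del22 replicate 3 (0.51, adjusted p = 0.113). The ATPase subunit SMARCA4 was at 273 ± 20.9 CPM in mut9 and 241 ± 22.0 CPM in del22 (0.18 ± 0.11, adjusted p = 0.374) and did not pass. Without mut9 replicate 1 or del22 replicate 3 the number called higher was 2. The lower call was DPF1, described with its repeat above.

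**Figure D4:**
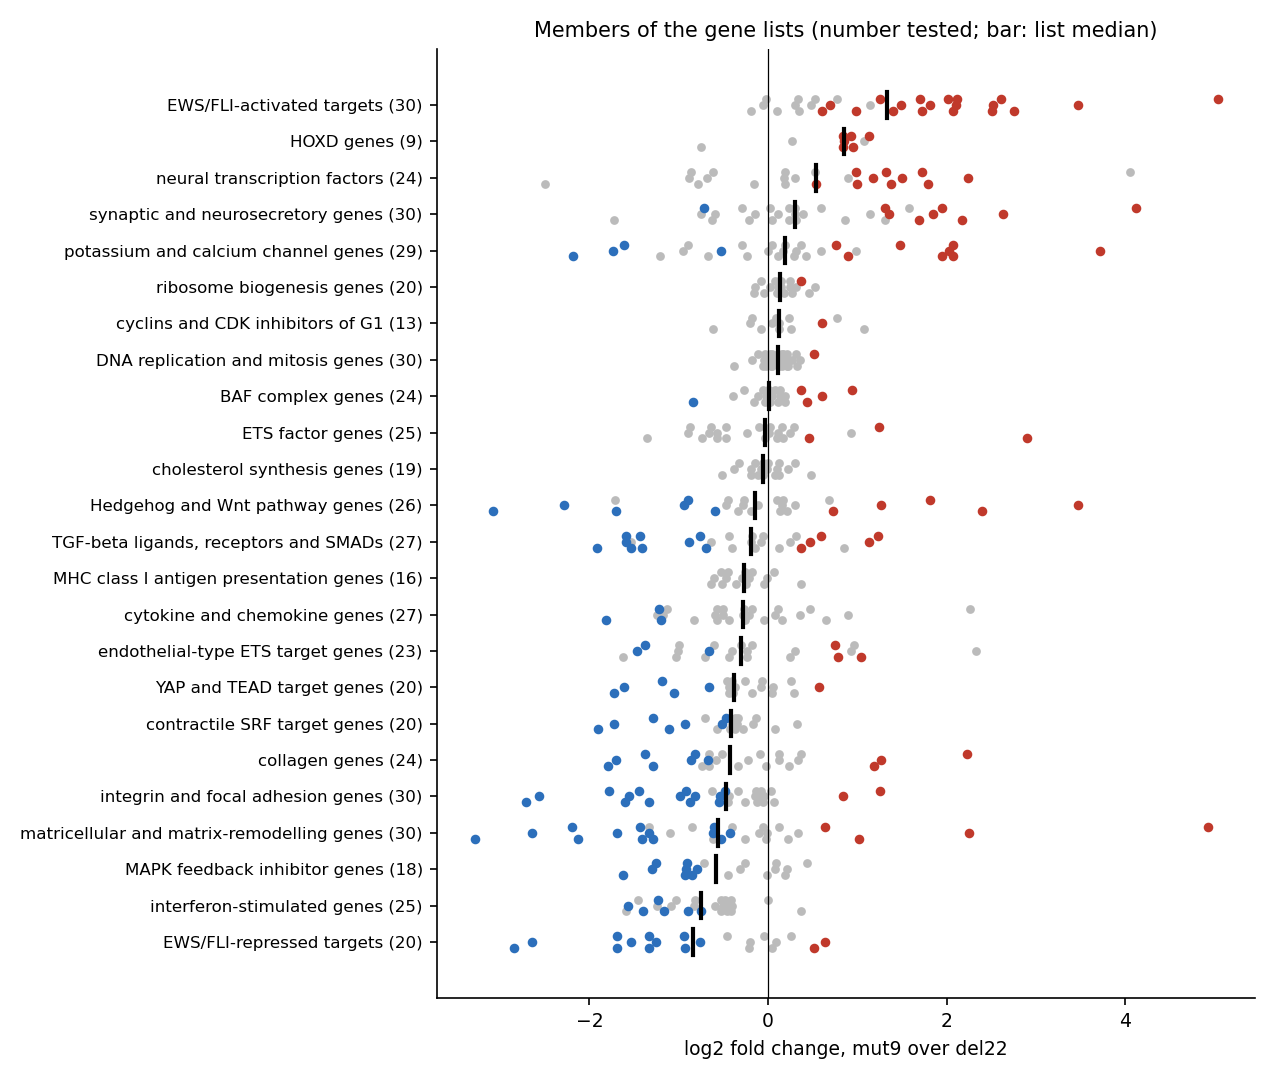
Log2 fold change of mut9 over del22 (horizontal axis) for the tested members of each gene list (rows), with called members in colour and a vertical tick at the list's median. The EWS/FLI-activated list has its median at 1.33 and 19 coloured points to the right of 0, the integrin and focal adhesion list has 14 to the left.

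The difference between mut9 and del22 was then set beside the effect of the endogenous fusion, iLuc over iEF, which shares no library with it. That comparison called 18.7% of tested genes higher and 22.4% lower in iLuc. Of the 1382 genes higher in mut9, 1064 were also higher in iLuc, 71 were lower and 247 were not called. Of the 1418 genes lower in mut9, 1264 were also lower in iLuc, 26 were higher and 128 were not called. Among genes called in both comparisons the direction was the same for 2328 of 2425 (96%, 95% Wilson interval 95.1 to 96.7%), although genes are not independent replicates. Beside WT-EF over iEF, which also shares no library with the comparison, 1075 of the higher genes moved the same way and 23 the opposite way, and for the lower genes these numbers were 1268 and 3.

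The higher genes had a median log2 fold change of 1.39 in mut9 over del22, 1.64 in iLuc over iEF and 1.41 in WT-EF over iEF. The lower genes had medians of -1.07, -2.33 and -1.60. Both sets were chosen by the mut9 over del22 test, which tends to enlarge their change in that comparison only. These medians are therefore not a comparison of sizes. Across the 12560 genes called in iLuc over iEF, the slope of the mut9 minus del22 difference on the iLuc minus iEF difference was 0.236, 0.356 and 0.185 in replicate sets 1, 2 and 3 (mean 0.259 ± 0.088 SD). Pearson's r across these genes was 0.635, a description over genes that share libraries.

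**Figure D5:**
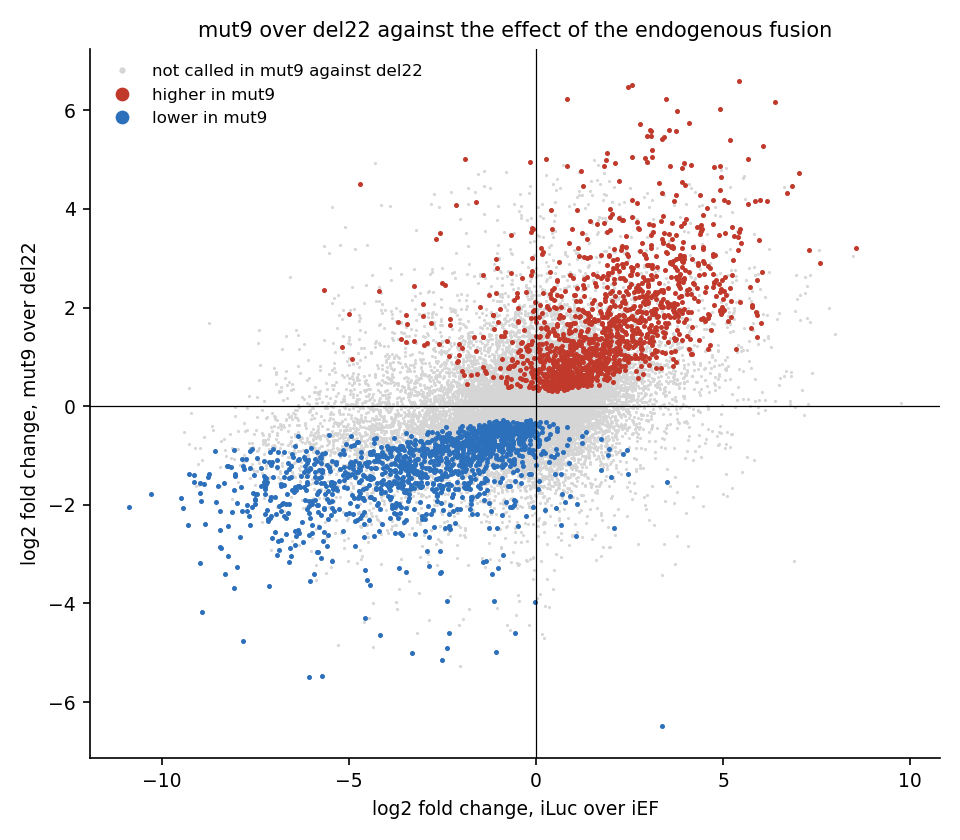
Log2 fold change of mut9 over del22 (vertical axis) against that of iLuc over iEF (horizontal axis) for tested genes, with genes called in mut9 versus del22 in colour. Most coloured points lie in the lower left and upper right of the plot, 2328 of the 2425 that were called in both comparisons.

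Some genes moved against the effect of the endogenous fusion, 71 up and 26 down in mut9. The examples given here were chosen after their values were seen, and 4 of them encode matrix proteins that rose in mut9 while iLuc was below iEF. BGN (biglycan) was at 66.0, 72.2 and 62.2 CPM in mut9 and 29.2, 48.8 and 23.6 CPM in del22 (log2 fold change 1.02 ± 0.25, adjusted p = 0.00999 in mut9 over del22, and -2.32 ± 0.27, adjusted p = 4.32e-07 in iLuc over iEF). COL16A1 was at 122, 134 and 74.0 CPM in mut9 and 60.2, 63.5 and 19.3 CPM in del22 (log2 fold change 1.26 ± 0.27, adjusted p = 0.00373 in mut9 over del22, and -2.06 ± 0.28, adjusted p = 4.06e-06 in iLuc over iEF). Both genes had separate groups in mut9 and del22, but BGN was not called without mut9 replicate 1 (0.94, adjusted p = 0.0514) or del22 replicate 3 (0.83, adjusted p = 0.0801). COL8A1 (log2 fold change 1.19 ± 0.16, adjusted p = 2.64e-05 in mut9 over del22, and -5.18 ± 0.19, adjusted p = 6.08e-14 in iLuc over iEF) and TNC (tenascin, log2 fold change 0.64 ± 0.17, adjusted p = 0.0157 in mut9 over del22, and -1.73 ± 0.17, adjusted p = 4.16e-08 in iLuc over iEF) moved in the same way, the latter with a call lost in 3 of the 6 fits without 1 library, as given above. The signalling genes JAK3 (log2 fold change 1.97 ± 0.25, adjusted p = 1.63e-05 in mut9 over del22, and -0.96 ± 0.27, adjusted p = 0.00597 in iLuc over iEF) and STAT3 (log2 fold change 0.78 ± 0.11, adjusted p = 6.06e-05 in mut9 over del22, and -0.97 ± 0.11, adjusted p = 4.29e-07 in iLuc over iEF) were also higher in mut9 and lower in iLuc. KIT, the receptor of stem cell factor, was the other way round (log2 fold change -1.44 ± 0.34, adjusted p = 0.00882 in mut9 over del22, and 2.00 ± 0.34, adjusted p = 5.81e-05 in iLuc over iEF), and it was not called without mut9 replicate 1 (-1.08, adjusted p = 0.0790).

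Levels in the other groups place these differences. The genes higher in mut9 had a median log2 fold change over iEF of 1.31 in mut9 and -0.028 in del22, and the lower genes had -0.98 and 0.062. These pairs share the iEF libraries, and the genes were chosen by the difference of mut9 from del22. The values are given side by side only. Between del22 and iEF themselves 817 of the tested genes were called, 269 higher and 548 lower in del22. NR0B1 was at 52.5 ± 7.89 CPM in iLuc, 16.4 ± 6.26 in iEF, 28.5 ± 2.59 in WT-EF, 46.5 ± 8.81 in mut9, 8.01 ± 3.62 in del22, 27.3 ± 9.45 in DAF and 7.65 ± 2.48 in DAF-mut9 (mean ± SD, n = 3). APELA was at 26.7 ± 5.55 CPM in iLuc, 0.572 ± 0.318 in iEF, 16.2 ± 4.93 in WT-EF, 20.9 ± 14.1 in mut9, 0.610 ± 0.307 in del22, 5.64 ± 1.66 in DAF and 1.03 ± 0.205 in DAF-mut9. The mean of mut9 was above that of WT-EF in both genes. For APELA del22 was at the level of iEF. For NR0B1 del22 was below iEF (-1.03 ± 0.27, adjusted p = 0.0473 in del22 over iEF), and mut9 was above iEF by 1.57 ± 0.27, adjusted p = 3.21e-04. THBS1 was at 1.03 ± 0.152 CPM in iLuc, 87.7 ± 7.90 in iEF, 5.52 ± 0.640 in WT-EF, 21.6 ± 4.15 in mut9, 134 ± 4.38 in del22, 138 ± 8.80 in DAF and 149.6 ± 23.6 in DAF-mut9. IGFBP3 was at 16.9 ± 0.863 CPM in iLuc, 4539 ± 1159 in iEF, 353 ± 155 in WT-EF, 1740 ± 463 in mut9, 5727 ± 984 in del22, 4530 ± 976 in DAF and 6845 ± 614 in DAF-mut9. Here mut9 lay between del22 and WT-EF. The difference of mut9 from WT-EF was 2.35 ± 0.24, adjusted p = 9.58e-06 for IGFBP3 and 1.97 ± 0.14, adjusted p = 2.10e-07 for THBS1. It was 0.73 ± 0.26, adjusted p = 0.118 for NR0B1 and 0.25 ± 0.27, adjusted p = 0.724 for APELA, which did not pass. CALCB was below WT-EF in mut9 (-3.08 ± 0.23, adjusted p = 2.10e-07). The count columns named mut9 with a d were read as DAF-mut9, a construct that the study's methods also call mut9-DAF. No label spells this out, and every DAF-mut9 value rests on that reading.

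The mut9 replicates differed in how often each was the highest or lowest library of its group. The genes were called from these same libraries, so these orders are a description only. Among the 1382 genes higher in mut9, replicate 2 was the highest mut9 library for 957 (69.2%) and replicate 3 the lowest for 812 (58.8%). Among the 1418 lower genes, replicate 2 was the lowest mut9 library for 784 (55.3%) and replicate 3 the highest for 724 (51.1%). The del22 libraries were ordered too: replicate 2 was the highest del22 library for 639 (46.2%) of the higher genes, and replicate 3 for 630 (44.4%) of the lower genes. Set 2 also gave the steepest slope on the endogenous fusion, a value that rests on replicate 2 of mut9, del22, iLuc and iEF. FLI1 was at 33.4 CPM in mut9 replicate 2 against 28.4 and 30.4 CPM in replicates 1 and 3, and the part of the cDNA level in this spread was not tested. The number of genes called without 1 library was lowest without mut9 replicate 2 (1664) and highest without mut9 replicate 3 (2400).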

How the data were processed

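RNA-seq of A673 cells was analysed from the deposited tables. The authors aligned paired-end reads to hg19 with STAR (2.5.1b in the submitters' processing notes) and deposited raw counts of Ensembl genes from htseq-count, run with the intersection-strict option. Which annotation release and strand setting were used is not given in the sources used here, and 63 of the 162 genes listed for this comparison share exon bases with another gene. The authors also deposited counts adjusted with ComBat for the replicate set, a signal that need not be whole, which served only as an alternative. A further deposited table holds the authors' own comparisons (log2 fold changes and p-values) and was not used.

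Of 57820 genes, 30549 averaged 1 count or more over the libraries and were tested. Counts of all 21 libraries were normalized by TMM and fitted together in edgeR 4.0.16 (R 4.3.3) with terms for group and replicate set, which the study also corrected for, and the contrast of mut9 and del22 was tested by quasi-likelihood. Genes were called at a Benjamini-Hochberg adjusted p below 0.05. The SE is the absolute log2 fold change divided by the square root of F. Replicates are separate experiments in 1 line, so p-values measure the spread between these. In simulated counts for this comparison with 200 changed genes, 53.5% of 2-fold changes (6.96% of calls false, 30047 genes) and 89% of 4-fold changes (3.78%, 30016 genes) were recovered. The simulation changed only genes above a minimum count, in mut9 alone, with no replicate-set effect. It changed far fewer genes than were called here, so these rates check the method and are not rates of this comparison.

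Genes were placed with GENCODE models lifted to GRCh37, and runs of GGAA were sought on both strands. Named genes were a fixed set (FLI1, EWSR1, NR0B1, NKX2-2, TGFBR2, IGFBP3, LOX, GSTM4, FCGRT, GLI1, SOX2 and CCND1), the 10 largest changes each way among called genes with a symbol, a mean of at least 5 CPM and 1 direction in all 3 sets, the 3 smallest p-values each way, and in each list up to 4 called members with the largest change and up to 2 abundant members not called. Members and lists were chosen with earlier results of these data known. Some genes that this rule names are not reported here. Alternatives were DESeq2 1.42.0, no replicate block, only the 6 libraries, RLE, 2 other filters, ComBat values with limma 3.58.1, a 2-fold requirement, libraries or sets left out, other repeat windows and other prior counts. Intervals and floors cover counting error only.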

Additional observations from a re-analysis of the deposited data

How the results depend on the processing

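Of 108 named or chosen genes that were called, 66 were called in all 16 other settings that gave them a value, 91 in each setting that kept every library, and 0 changed sign. The count of 2800 was 1669 with at least a 2-fold change (903 higher, 766 lower). With libraries or sets left out it was 1359 (without replicate 2) to 2622 (without replicate 3), 709 to 1262 higher and 632 to 1360 lower. Without mut9 replicate 2 it was 1664.

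Same-numbered libraries of mut9 and del22 did not deviate together: correlations of their deviations from the group means were -0.087 to 0.094 over 10699 genes, and 2 of the 6 libraries correlated best with their own number. With no replicate block, 2293 genes were called, 1127 higher and 1166 lower. No low-count filter gave 3713, DESeq2 gave 3357 and the ComBat-adjusted values gave 2914. With no block CXCL12, DES, DPF1, INHBB, MYT1 and TNC were lost, with DESeq2 CXCL8 and MX2, with only the 6 libraries MX2 and with the filterByExpr filter MCM6. With the ComBat-adjusted values 8 named genes were lost, COL6A1, DHRS3, GLI1, IFIT1, LOX, MMP9, NT5E and POSTN, and the cause was not tested.

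The share moving in the direction of iLuc over iEF was 96.8% with no replicate block, 93.9% with no low-count filter, 96.9% with at least a 2-fold change and 93.8 to 97.7% with libraries left out. The slope was 0.211 to 0.296 without 1 set. FLI1 stayed lower, from -0.79 to -0.51, and EWSR1 was 0.097 to 0.23. The share of higher genes with a GGAA run was 7.06% for runs of at least 6, 2.08% within 1 kb, 28.1% within 20 kb, 11.8% with at least a 2-fold change and 9.05 to 12% with libraries left out. For lower genes these were 1.15%, 0.65%, 14.7% and, with libraries left out, 3.29 to 4.87%. All tested genes with a placed start gave 1.66% for runs of at least 6, 0.501% within 1 kb and 14.3% within 20 kb. Signs of genes not called turned with libraries left out for B2M (-0.18 to 0.093), CCL2 (-1.06 to 0.56), DUSP6 (-0.097 to 0.19), MKI67 (-0.002 to 0.54) and SPARC (-0.001 to 0.22). Of 289 settings of the 17 list counts of 5 or more, 54 moved by over 1.5 times, 36 of them with libraries left out.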
